A study of Mus musculus with 6 samples.

Results

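The constant regions of antibodies are encoded by a small group of genes, of which 10 were taken from the table of 33971 genes by name: the heavy-chain genes Ighm, Ighd, Ighg1, Ighg2b, Ighg2c, Ighg3 and Igha, and the light-chain genes Igkc, Iglc1 and Iglc2. Their RNA was measured in articular cartilage of wildtype mice, with 3 libraries of the 2-month age and 3 of the 18-month age. All 10 had counts, and all passed the filter on low counts. The group was chosen from the measured difference between the ages, with immunoglobulin genes among the largest rises of the table, so differences between the ages are given for these genes as a description and without a p-value. The labels give the tissue, the genotype and the age, the study's methods describe male mice, and neither says whether each library came from 1 animal or from several. Spread between libraries of one age may therefore be technical in part.

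An antibody pairs heavy chains with light chains. The heavy-chain constant region sets the isotype: a naive B cell makes IgM and IgD from one transcript by splicing, and after class-switch recombination the same variable region is joined to a downstream constant gene, which gives IgG, IgE or IgA. The light chain is either kappa, from Igkc, or lambda, from the Iglc genes, and most mouse antibodies carry kappa. Plasma cells, many of which live in the bone marrow, secrete antibody and hold very large amounts of immunoglobulin RNA, while cartilage itself holds chondrocytes and no blood vessels.

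The heavy-chain genes lie together on the minus strand of chromosome 12 (GRCm38), from Ighm (113418558 to 113422730) through Ighd (113406604 to 113416324), Ighg3 (113356224 to 113361232), Ighg1 (113325240 to 113330523), Ighg2b (113302965 to 113307933) and Ighg2c (113285325 to 113288932) to Igha (113254830 to 113260236). Igkc lies on the plus strand of chromosome 6 (70726435 to 70726966). Iglc1 (19061618 to 19062071) and Iglc2 (19198396 to 19200351) lie on the minus strand of chromosome 16. The deposited positions of all 10 genes were identical to those of the GENCODE M21 annotation. The 4 IgG genes resemble one another, and their hinge exons, which encode the flexible stretch between the arms and the stem of the antibody, differ in length between them. Hinge exons are printed here to make the genes that are counted apart here recognisable. The sequences are those of the GENCODE M21 transcripts on the minus strand of GRCm38, and capitals mark the codons for cysteine, through which the paired heavy chains are linked.
Ighg1, chr12:113329844-113329882: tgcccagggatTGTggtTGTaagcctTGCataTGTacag
Ighg2b, chr12:113307261-113307326: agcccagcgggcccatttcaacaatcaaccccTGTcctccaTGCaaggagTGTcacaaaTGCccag
Ighg2c, chr12:113288263-113288325: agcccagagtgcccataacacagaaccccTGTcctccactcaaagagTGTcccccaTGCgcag
Ighg3, chr12:113360529-113360576: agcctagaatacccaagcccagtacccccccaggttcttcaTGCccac
The hinge exon had 39 bases with 4 cysteine codons in Ighg1, 66 bases with 4 in Ighg2b, 63 bases with 3 in Ighg2c and 48 bases with 1 in Ighg3. Over the whole coding sequence of the secreted form, Ighg2b and Ighg2c were identical at 85.9% of aligned bases, with a longest identical run of 78 bases. The other pairs of IgG genes were identical at 75.7% to 77.7%. Among the lambda genes only Iglc2 and Iglc3 are closer still. Iglc2 and Iglc3, which is not among the 10 genes, were identical at 96.5% of aligned bases with a longest identical run of 79. Iglc1 was identical to Iglc2 at 74.8% and to Iglc3, which lies beside it, at 75.4%. Capitals in the coding sequences of the 3 lambda genes (GENCODE M21, minus strand of GRCm38, first 300 bases or fewer) mark the bases at which they are not all the same.
Iglc1, chr16:19061772-19062071: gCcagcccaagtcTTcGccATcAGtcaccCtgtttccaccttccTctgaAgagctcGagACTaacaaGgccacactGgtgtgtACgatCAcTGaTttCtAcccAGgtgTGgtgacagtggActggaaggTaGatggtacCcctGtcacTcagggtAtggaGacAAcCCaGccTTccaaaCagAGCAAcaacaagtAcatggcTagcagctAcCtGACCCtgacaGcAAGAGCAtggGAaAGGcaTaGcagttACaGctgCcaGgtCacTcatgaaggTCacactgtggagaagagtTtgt
Iglc2, chr16:19198556-19198852: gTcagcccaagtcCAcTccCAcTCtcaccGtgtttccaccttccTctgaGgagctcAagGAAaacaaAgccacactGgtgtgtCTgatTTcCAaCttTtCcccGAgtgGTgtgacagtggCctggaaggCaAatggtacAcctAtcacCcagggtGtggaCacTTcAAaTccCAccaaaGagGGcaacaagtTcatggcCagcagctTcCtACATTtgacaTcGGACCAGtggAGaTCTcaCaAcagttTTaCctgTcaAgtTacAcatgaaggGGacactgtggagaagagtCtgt
Iglc3, chr16:19065385-19065681: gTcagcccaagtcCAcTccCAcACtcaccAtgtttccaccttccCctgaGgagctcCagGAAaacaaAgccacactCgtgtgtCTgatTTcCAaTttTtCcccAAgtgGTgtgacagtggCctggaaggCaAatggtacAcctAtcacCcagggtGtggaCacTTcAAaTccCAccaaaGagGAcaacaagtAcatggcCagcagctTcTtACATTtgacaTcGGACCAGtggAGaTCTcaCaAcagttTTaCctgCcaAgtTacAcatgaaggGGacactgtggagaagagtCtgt
Iglc2 had 8 bases in this stretch that differed from both others and Iglc3 had 5, against 76 for Iglc1. Between heavy-chain genes or between lambda genes, no coding stretch of 150 bases, the length of a read, was shared in full. Only coding sequences were compared, of the secreted form for heavy chains, and not untranslated parts or membrane exons. How the authors' counting treated reads that match more than 1 gene is not given, so counts of Iglc2 and of Ighg2b and Ighg2c are uncertain to that extent. Igkc also overlaps the gene Gm30211 on its own strand, Iglc2 overlaps the joining segment Iglj2, and Iglc1 overlaps 2010309G21Rik on the opposite strand.

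The libraries held 48171507 to 59085179 counts. Same-age libraries were further apart than counting noise, least so between 18-month replicates 2 and 3. For that pair the median squared difference over genes was 6.32 times that of counting alone, against 13.1 to 48.7 times for the other pairs. The labelled tissue was checked by 16 chondrocyte markers, whose summed level was 74686 to 88026 CPM (counts scaled to a common library total) at 2 months and 8443, 1956 and 1945 CPM at 18 months. The 14 neutrophil markers summed to 17.4, 5627 and 268 CPM at 2 months and to 42915 to 46081 CPM at 18 months, and 10 erythroid markers to 248, 6638 and 698 CPM and to 27143 to 35864 CPM. Among the 2-month libraries replicate 2 stood apart in this way, and results that rest on it are given with and without it. Xist had 88239 to 102417 counts at 2 months and 11 to 30 at 18 months, although the methods describe males, and age, sex and tissue make-up cannot be told apart here. In bulk RNA, fewer cells of a type and less RNA per cell cannot be told apart either.

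Constant-region RNA was a trace in the 2-month libraries and a measurable part of all RNA in the 18-month libraries. The 10 genes together took 0.00146%, 0.0332% and 0.00211% of all counts in 2-month replicates 1, 2 and 3, and 0.573%, 0.321% and 0.318% at 18 months. Every one of the 10 genes was higher in each 18-month library than in each 2-month library, which was true of 35.6% of all genes tested. In edgeR's fit over all genes, 6 of the 10 were past the limits for a call (an adjusted p-value below 0.05 and a log2 fold change above 1) against 14.9% of all genes tested, and 4 others (Ighm, Ighg1, Iglc1 and Iglc2) were not. The number was 10 without 2-month replicate 2, beside 23.3% of all genes then tested. It was 3 without 2-month replicate 1 (beside 12.5%) and 3 without 2-month replicate 3 (beside 10.03%). Since the genes were chosen on this contrast, nothing is read from these counts.

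**Figure D1:**
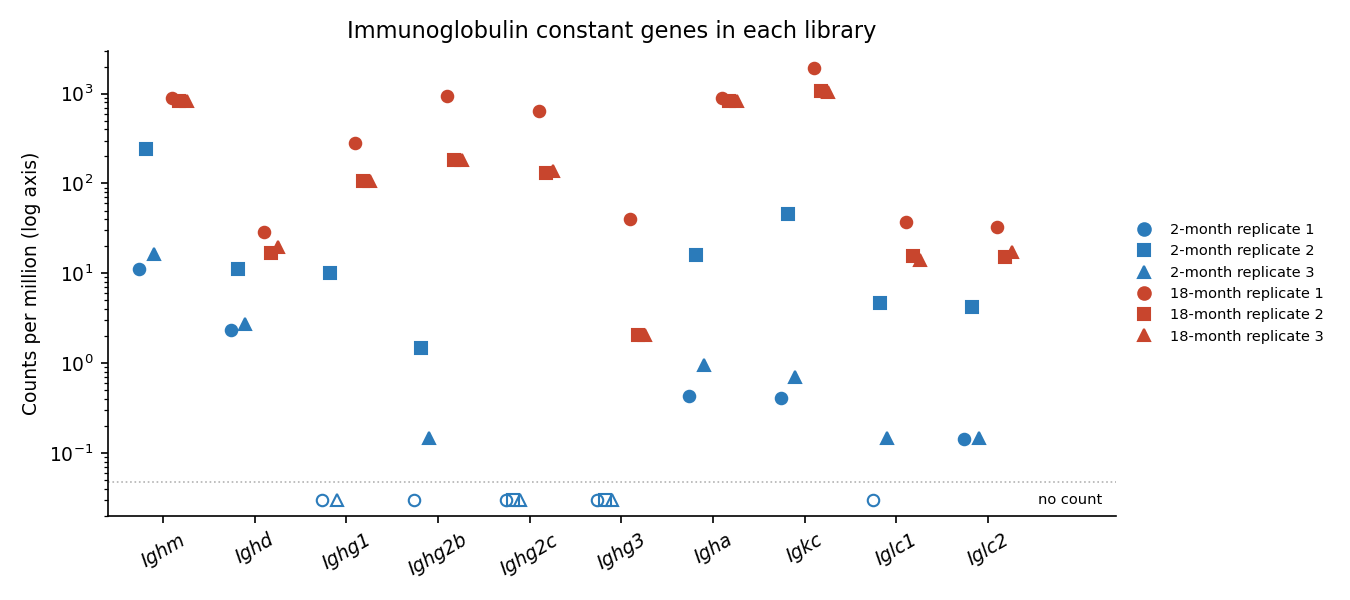
Level of each immunoglobulin constant gene in each of the 6 libraries, in CPM on a log axis; each symbol is 1 library, and open symbols under the dotted line are libraries without a count. Each gene's 18-month symbols sit above its 2-month symbols, 2-month replicate 2 is mostly the highest of its age, and 18-month replicate 1 is above replicates 2 and 3 for the IgG genes.

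Ighm encodes the constant region of IgM, the first isotype a B cell makes. It had 543, 12347 and 784 counts in 2-month replicates 1, 2 and 3 and 53259, 46100 and 46414 at 18 months. The 18-month libraries were close to each other, at 857 ± 38.8 CPM (SD, n = 3), whereas 2-month replicate 2 was far above the other two and made the 2-month mean 88.8 ± 130 CPM (SD, n = 3). The ratio of the means was 9.65, and against 2-month replicate 2 alone it was 3.59. Ighd, which is made together with Ighm in naive B cells, had 113, 573 and 133 counts at 2 months and 1699, 935 and 1081 at 18 months. Its difference was the smallest of the 10 genes, with means of 5.40 ± 4.93 and 21.7 ± 6.23 CPM (SD, n = 3 each), a ratio of 4.02, and the lowest 18-month library was 1.53 times as high as 2-month replicate 2.

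Igha encodes IgA, the isotype of mucosal surfaces. It had 21, 829 and 46 counts at 2 months and 52851, 45919 and 45564 at 18 months. The 18-month libraries did not overlap those at 2 months, and they were as close to each other for Igha (848 ± 40.8 CPM, SD, n = 3) as for Ighm. The 2-month mean was 5.81 ± 8.86 CPM (SD, n = 3). The ratio of the means was 146 for Igha, and 52.9 against 2-month replicate 2 alone. Igha and Ighm lay close together in each 18-month library, at 894 and 901 CPM in replicate 1, 832 and 835 in replicate 2, and 818 and 833 in replicate 3.

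The IgG genes were close to absent from the 2-month libraries. Ighg1 had 0, 526 and 0 counts at 2 months and 16632, 5945 and 5907 at 18 months. Ighg2b had 0, 77 and 7 counts at 2 months and 55134, 10114 and 10277 at 18 months. Ighg2c, the gene that C57BL/6 mice carry where other strains have Ighg2a, had no count in any 2-month library and 37511, 7201 and 7654 at 18 months. Ighg3 also had no count at 2 months, and it had 2375, 113 and 116 at 18 months. All counts of Ighg1 at 2 months were thus in replicate 2, and only 2-month replicates 2 and 3 had counts of any IgG gene. The ratio of the means was 48.7 for Ighg1 (3.39 ± 5.88 to 165 ± 101 CPM, SD, n = 3 each) and 796 for Ighg2b (0.545 ± 0.821 to 434 ± 433 CPM, SD, n = 3 each). Against 2-month replicate 2 alone the ratios were 16.2 and 291, and without 18-month replicate 1 they were 31.5 and 337. Against a floor of 3 counts in the shallowest 2-month library, Ighg2c was at least 4832-fold higher and Ighg3 at least 237-fold higher at 18 months. Without 18-month replicate 1 these bounds were 2151-fold and 33.2-fold.

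The 18-month libraries were not alike in IgG. Replicate 1 was 2.63 times the mean of replicates 2 and 3 for Ighg1, 5.08 times for Ighg2b, 4.74 times for Ighg2c and 19.5 times for Ighg3, all in CPM. For Ighm and Igha the same ratio was 1.08, and for Ighd it was 1.58, so that all 10 genes were highest in replicate 1. Replicate 3 against replicate 2 lay between 0.909 and 1.15 for all 10 genes. The 4 IgG genes together were at 1890 CPM in replicate 1, 423 in replicate 2 and 430 in replicate 3. Chondrocyte markers were also highest in replicate 1 among the 18-month libraries (8443 against 1956 and 1945 CPM), and their part in this difference was not tested.

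The light chains were higher at 18 months as well. Igkc, the kappa gene, had 20, 2350 and 34 counts at 2 months and 115129, 59327 and 58593 at 18 months, with means of 15.5 ± 25.9 and 1358 ± 511 CPM (SD, n = 3 each). Kappa was higher in each 18-month library, by a ratio of the means of 87.5 and of 29.9 against 2-month replicate 2 alone. Iglc1 had 0, 239 and 7 counts at 2 months and 2203, 850 and 780 at 18 months, a ratio of the means of 14.0. Iglc2 had 7, 216 and 7 counts at 2 months and 1932, 849 and 972 at 18 months, a ratio of 14.7. For both lambda genes the lowest 18-month library was 3.03 and 3.68 times as high as 2-month replicate 2, in that order. Light chains also were highest in 18-month replicate 1, at 1.83 times the mean of the other two for Igkc, 2.54 times for Iglc1 and 1.99 times for Iglc2.

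The isotype make-up of the heavy-chain counts differed between the ages. Ighm made up 80.2% (95% Wilson interval 77.0% to 83.0%), 86.0% (85.5% to 86.6%) and 80.8% (78.2% to 83.2%) of the heavy-chain counts at 2 months. At 18 months it made up 24.3%, 39.6% and 39.7%, each with an interval narrower than 1 percentage point. The share of IgM was thus lower in every 18-month library, with means of 82.4 ± 3.20% and 34.5 ± 8.88% (SD, n = 3 each). With 3 libraries an age, an exact permutation test could not reach a p-value below 0.1, and none was run because the genes were chosen on this contrast. Intervals cover counting error only and not the spread between libraries.

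IgA and IgG had larger shares at 18 months than at 2 months. Igha made up 3.10% (2.04% to 4.70%), 5.78% (5.41% to 6.17%) and 4.74% (3.57% to 6.27%) of heavy-chain counts at 2 months and 24.1%, 39.5% and 38.9% at 18 months. The 4 IgG genes together had 0 of 677 heavy-chain counts in 2-month replicate 1, with a Wilson upper limit of 0.564%. They made up 4.20% (3.89% to 4.54%) in replicate 2 and 0.722% (0.350% to 1.48%) in replicate 3. At 18 months IgG made up 50.9%, 20.1% and 20.5%, a mean of 30.5 ± 17.7% (SD, n = 3) that was 20.3% without replicate 1. IgG was thus the leading class in 18-month replicate 1 only. In replicates 2 and 3 IgM and IgA were level in counts, though not once counts were divided by length, as given below. Ighd made up 16.7%, 3.99% and 13.7% at 2 months and 0.774%, 0.804% and 0.924% at 18 months. The count of Ighm for each count of Ighd was 4.81, 21.5 and 5.89 at 2 months and 31.3, 49.3 and 42.9 at 18 months.

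**Figure D2:**
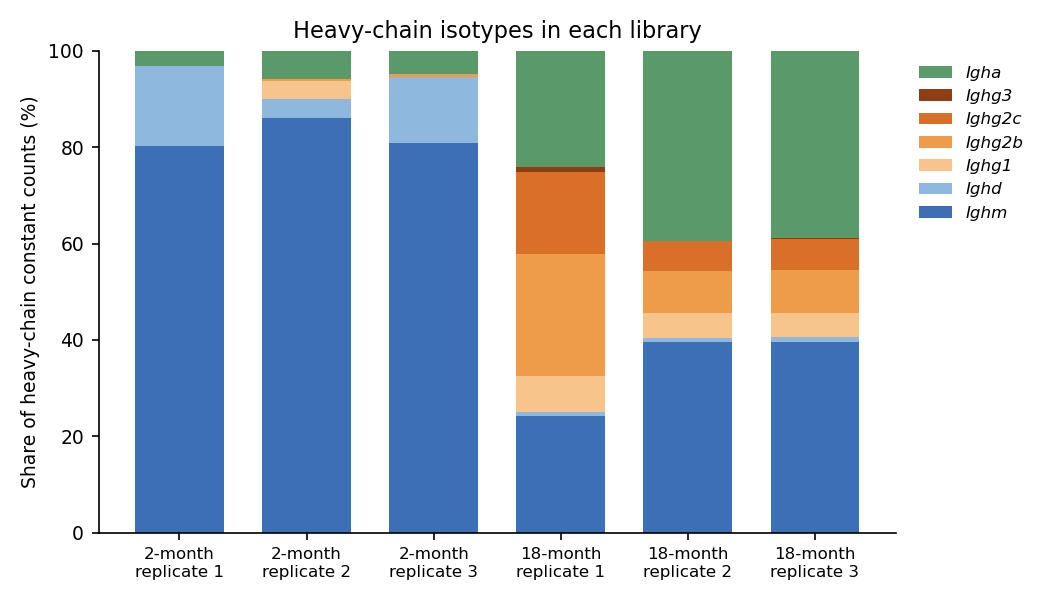
Share of each heavy-chain constant gene in the summed counts of the 7 genes, in percent, as 1 stacked bar a library. Ighm fills 80.2% to 86.0% of the 2-month bars; in the 18-month bars Igha and the IgG genes take most of the rest, and the IgG part is 50.9% in replicate 1 against 20.1% and 20.5%.

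Within IgG, Ighg2b held the largest part of the counts at 18 months and Ighg3 the smallest. Ighg2b took 49.4%, 43.3% and 42.9% of IgG counts in 18-month replicates 1, 2 and 3, and Ighg2c took 33.6%, 30.8% and 32.0%. Ighg1 took 14.9%, 25.4% and 24.7%. Ighg3 took 2.13% (2.04% to 2.21%), 0.483% (0.402% to 0.581%) and 0.484% (0.404% to 0.580%). Replicate 1 thus had a lower part of Ighg1 and a higher part of Ighg3 than the other two, by more than counting error. The 603 IgG counts of 2-month replicate 2 were 87.2% Ighg1 (84.3% to 89.7%) and 12.8% Ighg2b (10.3% to 15.7%), which is another order than in any 18-month library.

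Whether one isotype stood above another depended on the length by which counts were divided. The deposited FPKM values, which scale a count by transcript length, imply lengths of 3047 to 3065 bases for Ighg2b but 1509 to 1518 for Ighg2c, while the annotated transcripts of their secreted forms have 1114 and 1111 bases. In FPKM, Ighg2c was above Ighg2b in each 18-month library (421 and 306 in replicate 1, 86.4 and 60.1 in replicate 2, 90.5 and 60.2 in replicate 3). Per base of the secreted form the order was that of the counts, with 18.1% of the heavy chain for Ighg2c and 26.5% for Ighg2b in replicate 1. Ighm and Igha changed order too. The mean FPKM at 18 months was 398 ± 18.9 for Ighm and 279 ± 14.1 for Igha (SD, n = 3 each), yet per base of the secreted form Igha had the larger mean share, 37.7% against 28.0%. Within one gene, differences between libraries do not depend on this length.

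By FPKM at 18 months the order from the highest was Igkc (2240 ± 848), Ighm (398 ± 18.9), Igha (279 ± 14.1), Ighg2c (199 ± 192), Ighg2b (142 ± 142), Ighg1 (55.9 ± 34.3), Iglc1 (43.0 ± 25.3), Iglc2 (31.3 ± 13.6), Ighd (10.01 ± 2.90) and Ighg3 (5.16 ± 7.71), all as mean ± SD of 3 libraries. Neighbours from Igha down to Iglc2 overlapped in their ranges over libraries, as did Ighd and Ighg3, whereas Igkc and Ighm, Ighm and Igha, and Iglc2 and Ighd did not. Within single libraries neighbours kept this order, with exceptions in replicate 1 alone. There Ighg2c (421) was above Igha (295), and Ighg3 (14.1) was above Ighd (13.3). Beyond neighbours, Ighg2c was also level with Ighm (420) in replicate 1, and Ighg2b (306) was above Igha.

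Kappa dominated the light chains at both ages and more so at 18 months. Igkc made up 74.1% (55.3% to 86.8%) of the 27 light-chain counts in 2-month replicate 1, 83.8% (82.4% to 85.1%) of 2805 in replicate 2 and 70.8% (56.8% to 81.8%) of 48 in replicate 3. In the 18-month libraries it made up 96.5% (96.4% to 96.6%), 97.2% (97.1% to 97.3%) and 97.1% (97.0% to 97.2%). The 3 intervals at 2 months lay below those at 18 months, although 2-month replicates 1 and 3 rest on few counts. Kappa counts for each lambda count were 2.86, 5.16 and 2.43 at 2 months and 27.8, 34.9 and 33.4 at 18 months. Iglc1 and Iglc2 had similar mean shares of the light-chain counts at 18 months, 1.51 ± 0.296% and 1.54 ± 0.129% (SD, n = 3 each). Their order differed between libraries. Iglc1 was above Iglc2 in replicate 1 (1.85% and 1.62%), level in replicate 2 and below in replicate 3 (1.29% and 1.61%). In FPKM Iglc1 was above Iglc2 in each 18-month library (72.2 and 46.9, 29.8 and 22.0, 26.9 and 24.9).

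**Figure D3:**
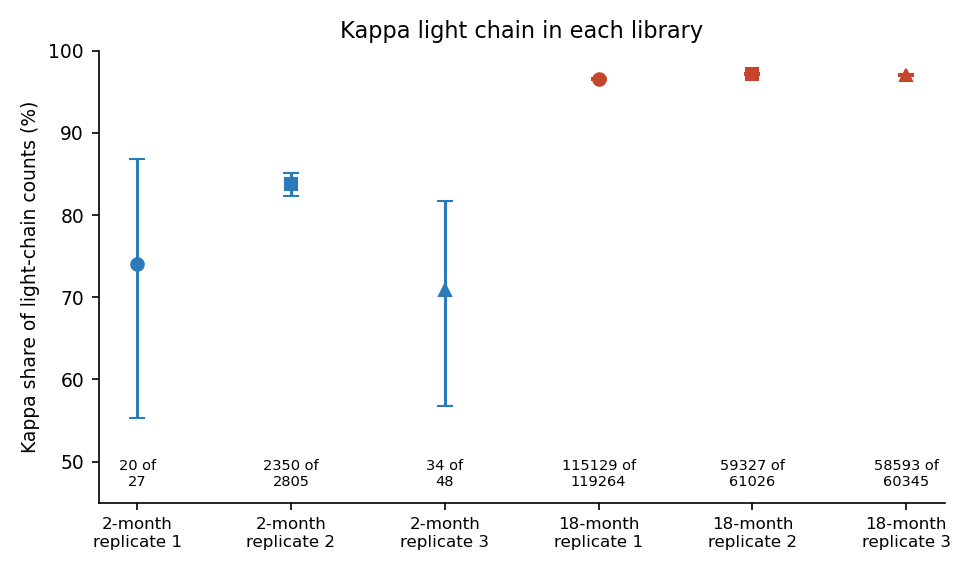
Share of Igkc in the summed counts of Igkc, Iglc1 and Iglc2 in each library, in percent, with the 95% Wilson interval as a bar and the counts below; the axis starts at 45%. The 18-month libraries lie between 96.5% and 97.2%, above the intervals of the 2-month libraries.

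The neighbours left out of the 10 genes were low or followed them. Ighe, the gene of IgE, had no count at 2 months and 37, 18 and 0 at 18 months. Iglc3 had 0, 191 and 4 counts at 2 months and 1818, 459 and 496 at 18 months, and Iglc4 had 6 counts in 18-month replicate 2 alone. Ighe and Iglc4 did not pass the filter on low counts. Adding Iglc3 and Iglc4 to the light chains moved the mean kappa share at 18 months from 96.9% to 96.0%.

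Heavy-chain constant counts came with fewer light-chain counts in each 2-month library, and with few counts of variable segments in 2-month replicates 1 and 3. For each heavy-chain constant count there were 0.0399, 0.195 and 0.0495 light-chain constant counts at 2 months and 0.543, 0.525 and 0.516 at 18 months. The 119 heavy-chain variable genes (Ighv), which encode the part that binds antigen, summed to 8, 1874 and 24 counts at 2 months and 43303, 18522 and 19489 at 18 months. For each heavy-chain constant count this made 0.0118, 0.131 and 0.0247 Ighv counts at 2 months against 0.197, 0.159 and 0.167 at 18 months. 2-month replicate 2 was thus near the aged libraries and the other 2-month libraries were far below. The 111 kappa variable genes (Igkv) summed to 0, 1851 and 39 counts and to 89984, 40230 and 40069. Per Igkc count they made 0.788 in 2-month replicate 2 and 0.782, 0.678 and 0.684 at 18 months. The other 2-month libraries rest on few counts, with 0 Igkv beside 20 Igkc counts in replicate 1 and 39 beside 34, a ratio of 1.15, in replicate 3.

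**Figure D4:**
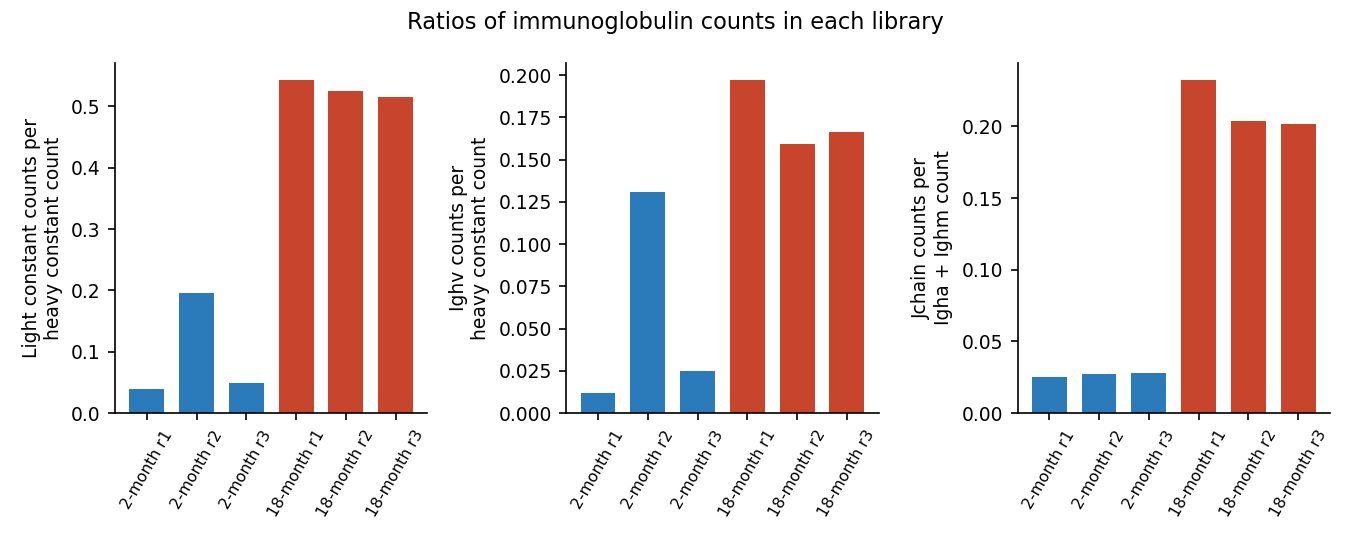
Counts of the light-chain constant genes for each heavy-chain constant count (left), of the Ighv genes for each heavy-chain constant count (middle) and of Jchain for each count of Igha and Ighm (right), 1 bar a library, blue for 2 months and red for 18 months, from 0. Light chains per heavy chain are 0.0399 to 0.195 at 2 months and 0.516 to 0.543 at 18 months, and Jchain is near 0.0248 to 0.0277 and 0.202 to 0.233.

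Markers of B cells were set beside these values. The 9 mature B cell markers summed to 5.15, 236 and 7.56 CPM at 2 months and to 240, 184 and 183 CPM at 18 months, so 2-month replicate 2 lay within the range of the aged libraries. None of these markers was at 0 in any library. The 10 constant genes in contrast summed to 332 CPM in 2-month replicate 2 and to 3184 to 5733 CPM at 18 months. Cd79a and Cd79b encode the signalling chains of the B cell receptor. For each of their summed counts there were 7.65, 2.42 and 10.6 counts of Ighm at 2 months and 9.52, 11.0 and 11.0 at 18 months, so that 2-month replicates 1 and 3 were not far from the aged libraries. For the whole heavy chain the values were 9.54, 2.82 and 13.1 at 2 months and 39.2, 27.8 and 27.8 at 18 months, with no overlap.

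The 7 markers of B cell precursors summed to 8.50, 135 and 11.0 CPM at 2 months and to 62.1, 59.7 and 57.2 CPM at 18 months, highest in 2-month replicate 2. The plasma cell list summed to 344, 408 and 326 CPM at 2 months and to 996, 892 and 874 CPM at 18 months. Most of that rise was in Jchain (means of 2.55 and 364 CPM) and Tent5c (58.8 and 255 CPM). Derl3, also on the list, had means of 8.15 CPM at 2 months and 4.33 CPM at 18 months. Of its 9 markers, Tnfrsf17, the plasma cell receptor for survival factors (named here after its values were seen), had no count in any 2-month library and 40, 50 and 43 at 18 months. Sdc1, which cells other than plasma cells also make, had a mean of 44.7 CPM at 2 months and 28.8 CPM at 18 months, and Xbp1, likewise made by other cells, had 230.5 and 227 CPM. The 9 T cell markers summed to 31.4 to 41.0 CPM at 2 months and 68.2 to 102 CPM at 18 months, and 10 macrophage markers to 14.3, 486 and 91.1 CPM and to 1175 to 1306 CPM. The part of cell make-up in the constant-region differences was not tested.

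Genes of the antibody pathway that are not constant genes were tested in the same fit. Of 92 genes on 6 lists, 91 were in the table and 86 were tested. Past both limits, 24 were higher and 9 lower at 18 months, beside 14.9% of all genes called higher and 21.3% called lower. The median log2 fold change over the 86 genes was 1.12 against −0.02 over all genes. The counts depended on single libraries. Without 2-month replicate 2, 57 were higher (23.3% of all genes then tested were called higher). Leaving out 2-month replicate 3 gave 11 higher and 3 lower, beside 10.03% and 16.4% of all genes. Leaving out 18-month replicate 2 gave 14 and 4, beside 9.90% and 17.2%, and leaving out 18-month replicate 3 gave 13 and 3, beside 9.81% and 17.3%. The fit that lacked 2-month replicate 1 called 5 lower, beside 17.7%.

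**Figure D5:**
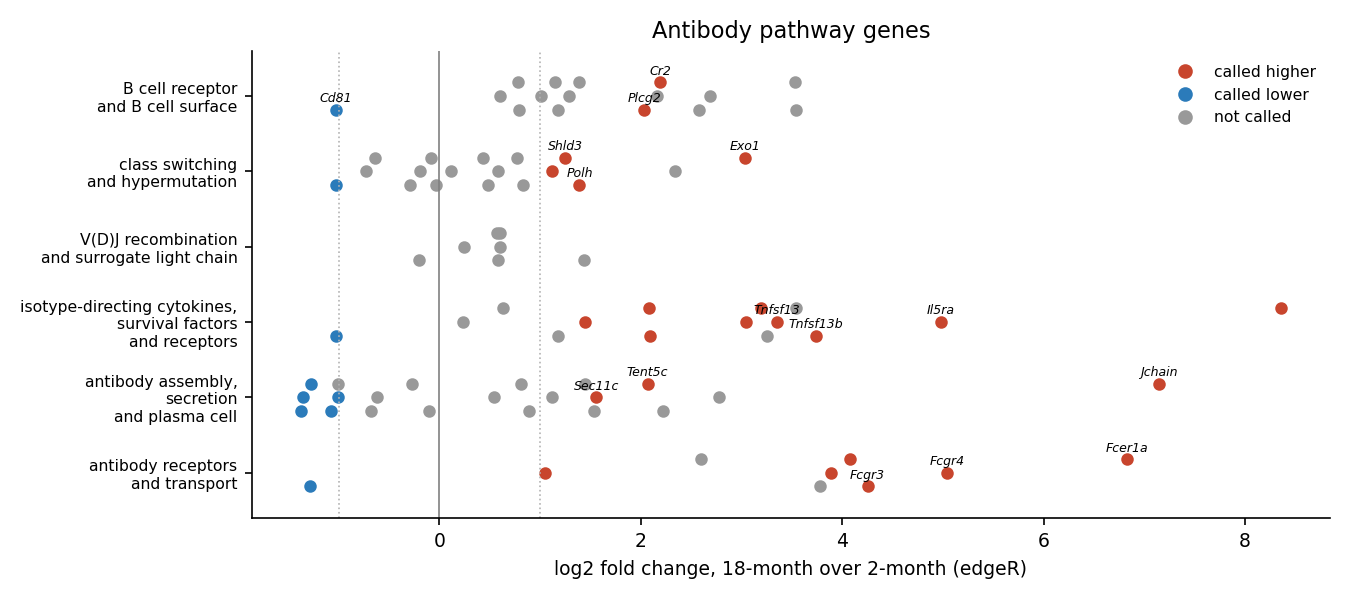
log2 fold change of the 86 tested antibody pathway genes between 18 and 2 months, 1 point a gene, by list; red and blue points passed both limits, dotted lines mark the limit on the fold change, and the vertical place within a list only separates points. Receptors for antibody and factors of B cell survival lie mostly to the right, the recombination genes lie between −0.21 and 1.44 and are not called, and the unlabelled point farthest right is Tnfrsf17, which had no count at 2 months, so that its place is not a measured size.

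Of 16 genes of the B cell receptor and B cell surface, 2 (12.5%) were called higher, which is near the share over all genes, and 1 lower, with a median of 1.34. The higher genes were 14 without 2-month replicate 2 and 1 without 2-month replicate 3. Cd79a had 33, 2551 and 40 counts at 2 months and 2748, 1878 and 1817 at 18 months, and Cd79b had 38, 2542 and 34 and then 2848, 2312 and 2391. Both overlapped between the ages because of 2-month replicate 2 and did not pass (log2 fold changes of 1.15 and 1.39, edgeR adjusted p = 0.562 and 0.483). Without that library both were called, with log2 fold changes of 5.55 and 5.80. Plcg2, an enzyme downstream of the receptor, rose by 2.03 (standard error 0.41, edgeR adjusted p = 0.010), and Cr2, a complement receptor, by 2.19 (standard error 0.50, edgeR adjusted p = 0.015). Cd81, a membrane protein of the B cell co-receptor that most cells make, fell by 1.02 on the log2 scale (standard error 0.22, edgeR adjusted p = 0.012), a value close to the limit.

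The machinery of class switching and hypermutation held 4 higher and 1 lower gene of 18, with a median of 0.46. These shares are 22.2% and 5.56%, beside 14.9% and 21.3% of all genes tested. Leaving out 2-month replicate 2 gave 7 higher genes, beside 23.3% of all genes, and leaving out 2-month replicate 3 gave 0, beside 10.03%. Leaving out 2-month replicate 1 or 18-month replicate 2 or 3 gave 1, beside 12.5%, 9.90% and 9.81%. Exo1, a DNA exonuclease, rose by 3.04 (edgeR adjusted p = 0.044), Polh, a polymerase that copies past damaged bases, by 1.39 (edgeR adjusted p = 0.013), and Shld3, a part of the complex that protects broken ends, by 1.25 (edgeR adjusted p = 0.025). All 3 are also used in DNA repair outside B cells.

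In edgeR's test 0 of the 7 genes of V(D)J recombination and the surrogate light chain were called, and 0 had a raw p below 0.05. Limma on log2(FPKM + 0.1) and DESeq2 called 0 as well. DESeq2 gave no adjusted p-value for Igll1 (log2 fold change 0.69), so it could not have called that gene. Without 2-month replicate 2 all 7 were called higher. The median with all libraries was 0.58. Igll1, which stands in for the light chain in precursors, had 0, 880 and 17 counts at 2 months and 505, 510 and 481 at 18 months. Its log2 fold change was 0.60 with a standard error of 1.81 (edgeR adjusted p = 0.798), and the value of 2-month replicate 2 exceeded that of every aged library.

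Of the 15 tested factors and receptors that direct isotypes or keep B cells alive, 9 were called higher (6 to 12 with 1 library left out) and 1 lower, with a median of 3.05. The shares with all libraries were 60% and 6.67%, beside 14.9% and 21.3% of all genes tested. Tnfsf13b (BAFF), a survival factor for B cells, had 60, 150 and 35 counts at 2 months and 1497, 1231 and 1108 at 18 months and rose by 3.74 (standard error 0.52, edgeR adjusted p = 0.0032). Tnfsf13 (APRIL), a survival factor for plasma cells, had 109, 143 and 43 counts and then 1677, 1044 and 890, and rose by 3.35 (standard error 0.48, edgeR adjusted p = 0.0034). Neither overlapped between the ages. For both genes 2-month replicate 2 was the highest of its age. It had 2.90 CPM of Tnfsf13b against 1.24 and 0.727 in replicates 1 and 3, and 2.77 CPM of Tnfsf13 against 2.25 and 0.893. Il5ra, a receptor chain for interleukin 5, rose by 4.98 (standard error 1.51, edgeR adjusted p = 0.037). Ifng, Il21, Il5 and Cd40lg, which T cells make, did not pass the filter on low counts.

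The list of antibody assembly, secretion and plasma cells held 3 genes called higher and 5 lower of 21, shares of 14.3% and 23.8% that are near those over all genes, and had a median of 0.54. Without 2-month replicate 2 the higher genes were 9, and the lower genes were 1 or 2 without any of the other libraries but 18-month replicate 1. Jchain encodes the chain that joins units of IgM and of IgA into polymers. It had 14, 355 and 23 counts at 2 months and 24687, 18765 and 18559 at 18 months and rose by 7.14 (standard error 1.43, edgeR adjusted p = 0.0095). For each count of Igha and Ighm there were 0.0248, 0.0269 and 0.0277 counts of Jchain at 2 months and 0.233, 0.204 and 0.202 at 18 months, and within each age this ratio varied little. Mzb1, a chaperone of antibody folding, had 5, 362 and 0 counts and then 1034, 804 and 929, and did not pass (log2 fold change 2.77, standard error 1.80, edgeR adjusted p = 0.240). Without 2-month replicate 2 it was called at 8.15.

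Prdm1, a regulator of plasma cell formation, had a log2 fold change of 0.54 and Sdc1 one of −0.68, and neither passed (edgeR adjusted p = 0.646 and 0.206). Tent5c, which stabilises immunoglobulin messages, rose by 2.07 (edgeR adjusted p = 0.0066) and Sec11c, a subunit of the signal peptidase, by 1.56 (edgeR adjusted p = 0.0021). In 2-month replicates 1 and 3 Tent5c had 37.8 and 41.6 CPM, while the 10 constant genes together had 14.6 and 21.1 CPM. Which cells made Tent5c was not tested. The 5 genes that fell were Hspa5, Hsp90b1, Pdia4 and Txndc5, which fold secreted proteins of many kinds, and the elongation factor Ell2. Their log2 fold changes lay between −1.01 and −1.37.

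Receptors for antibody were the list with the highest median, 3.88, and 6 of 9 tested genes were called higher and 1 lower. Beside these shares of 66.7% and 11.1%, 14.9% and 21.3% of all genes tested were called. The higher genes were 1 without 2-month replicate 3 or 18-month replicate 3, 2 without 18-month replicate 1 or 2, and 4 without 2-month replicate 1. Fcer1a, the IgE receptor chain of mast cells and basophils, had 0, 24 and 4 counts at 2 months and 1076, 1399 and 1183 at 18 months and rose by 6.82 (standard error 1.17, edgeR adjusted p = 0.0058). Fcgr4, a receptor for IgG2 on myeloid cells, rose by 5.04 (standard error 1.55, edgeR adjusted p = 0.039) and Fcgr3 by 4.25 (standard error 1.31, edgeR adjusted p = 0.039). Fcgrt, which protects IgG from breakdown in many cell types, was the gene called lower, at −1.29. Macrophage and neutrophil markers were higher in the same libraries, with the values given above, and their part in these changes was not tested.

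Calls of Exo1, Il5ra, Fcgr3, Fcgr4, Shld3, Cd81, Cr2, Polh, Hspa5, Hsp90b1, Pdia4 and Txndc5 were lost in at least 1 fit that left out a library, whereas Jchain, Plcg2, Fcer1a, Tnfsf13, Tnfsf13b, Sec11c, Tent5c, Ell2 and Fcgrt were called in every fit run.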

How the data were processed

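Polyadenylated RNA of articular cartilage was sequenced by the authors as strand-specific paired-end libraries. The authors deposited 1 table with whole-number counts per gene and library, not normalized, and FPKM values, scaled by length and library. The submitters' processing notes name cutadapt 1.9, HISAT2 2.0.4, UMI-tools, StringTie 1.3.4d, DESeq2 and edgeR. The genome build is not given in the sources used here. Of the genes, 33865 were found in GENCODE M21 (GRCm38), 30925 of them at identical positions. Totals were 48171507 to 59085179 counts, and CPM scales each count by its library's total.

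All 33971 genes were fitted in R 4.3.3 with edgeR 4.0.16 (TMM normalization, filterByExpr, quasi-likelihood test, no block), with p-values adjusted by the Benjamini-Hochberg method over 20397 genes. A call needed an adjusted p-value below 0.05 and an absolute log2 fold change above 1. The study's methods call the samples of its experiments independent but do not say that each library came from its own animals, so p-values measure the spread between these libraries. Shares are counts of a gene over the summed counts of the 7 heavy-chain or 3 light-chain genes, with Wilson intervals from scipy 1.17.1. Sequences were aligned with Biopython 1.88, and the secreted form was the transcript with fewer coding exons, or, for Ighd, the shorter one.

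The 10 genes, the lists and the marker genes were chosen with earlier results of these data known. Named genes were the 10 genes and their neighbours, Cd79a, Cd79b, Jchain, Mzb1, Prdm1 and Sdc1, and the 3 called genes of each list with the largest change and a mean of at least 1 CPM. Other genes were named after their values were seen, and 1 gene of the rule is not reported here. The 5 genes most like summed IgG were taken by Pearson's r of log2(CPM + 1) with no p-value. Alternatives were DESeq2 1.42.0, limma 3.58.1 with trend on log2(FPKM + 0.1), other scalings and filters, a replicate block and leaving out each library.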

Additional observations from a re-analysis of the deposited data

How the results depend on the processing

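Over the alternatives the 18-month shares of IgG, IgM and IgA moved by less than the spread between libraries. IgG was 32.3% in FPKM, 33.0% per base of the secreted form and 35.1% over pooled counts, and 20.3% to 35.7% with 1 library left out. IgM was 28.0% to 39.6% and IgA 27.5% to 39.2% over all settings. Kappa was 96.0% with Iglc3 and Iglc4 added and 96.5% per base of the secreted form, the only moves beyond its small spread. Of the 10 constant genes, limma on log2(FPKM + 0.1) called 10, beside 20.3% of all genes called higher. Fits without 1 library called 3 to 10, beside 9.81% to 23.3%. Pathway genes called higher ranged from 11 to 57 and called lower from 3 to 9 in fits without 1 library. With 18-month replicates 2 and 3 summed, an alternative chosen after seeing the data, they were 14 and 2. Called lower were 5 with median-of-ratios size factors and with DESeq2, and 4 with limma at either pseudocount and with scaling by total counts alone, which was also added after seeing the data, as was dividing by the length of the secreted form. Of the genes refitted under the alternatives, none changed direction (Xbp1 and Tnfrsf17 were not among them). The share of higher genes among all called was 41.2% in edgeR and 57.8% in limma with a pseudocount of 1. Between libraries of equal replicate number, the genes' deviations from their age's mean correlated at 0.0258, 0.0382 and −0.0159. Whether such libraries were handled together was not tested. With a replicate block 20 pathway genes were higher and 8 lower, beside 12.4% and 17.2% of all genes. The same fit called 5 constant genes higher, and the cause of such moves was not tested. Shares at 2 months are limited by 677 and 970 heavy-chain counts in replicates 1 and 3.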

Other observations

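The summed level of the 4 IgG genes was 0, 11.7 and 0.145 CPM in the 2-month libraries and 1890, 423 and 430 CPM in the 18-month libraries. Of 15829 other genes with a mean of at least 1 CPM, the 5 whose log2(CPM + 1) over the 6 libraries was most like that pattern were Svil, Myh9, Tiam1, Ahcy and Pnp, each with a Pearson's r of at least 0.999, given as a description. The points are not independent of the libraries' make-up, since the ages differ, 2-month replicate 2 stands apart from its age and 18-month replicate 1 from its own. Svil (supervillin, a protein of the actin skeleton) had 37.1, 63.0 and 38.5 CPM at 2 months and 165, 122 and 126 CPM at 18 months. Myh9, the heavy chain of a nonmuscle myosin, had 180, 319 and 185 CPM and then 913, 642 and 670 CPM. Their differences between the ages were far smaller than that of IgG.

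The lambda variable genes differed among the aged libraries as the IgG genes did, in part. Mouse lambda chains join Iglv1 with Iglc1 or Iglc3, and Iglv2 mainly with Iglc2. Iglv1 had 0, 346 and 0 counts at 2 months and 4588, 1465 and 1320 at 18 months. Iglv2 had 0, 76 and 0 counts and then 477, 514 and 494. Iglv3 had 2, 55 and 9 counts and then 474, 96 and 79. Iglv1 and Iglv3 were thus higher in 18-month replicate 1 than in the other aged libraries, in the way of the IgG genes, and Iglv2 was not. These values were chosen after they were seen, and no test was run on them.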
